A study of Homo sapiens with 6 samples.

Results

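Glycine left the classical heat shock genes of HepG2 cells close to their vehicle levels. The genes described are HSF1, the transcription factor of the heat shock response, 7 cytosolic chaperones (HSPA1A, HSPA1B, HSPA8, HSPH1, HSP90AA1, DNAJB1 and HSPB1) and the mitochondrial chaperonin with its partner (HSPD1 and HSPE1). They were taken by gene symbol, as HSF1 and well-known heat shock chaperones outside the endoplasmic reticulum (ER). All 10 were found among the 57500 genes counted, and all 10 had enough reads to be tested. HepG2, an established line from a human hepatocellular carcinoma, was used as wild-type cells in both groups. The vehicle group and the glycine group (10 mM) were each sampled after 24 h, as 3 libraries described as independent replicates. The medium was renewed at the start of treatment, and the study's standard culture medium already contains some glycine, so vehicle was not a glycine-free condition. A single cell line was studied, and only RNA was measured.

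The heat shock response guards cells against unfolded protein. HSF1 is kept inactive in the cytosol by chaperones, and when unfolded proteins occupy those chaperones it trimerizes, enters the nucleus and binds heat shock elements, which are inverted repeats of the bases GAA. Its targets include HSP70 proteins, which bind exposed hydrophobic stretches, J-domain proteins that deliver substrates to HSP70, HSP110 proteins that exchange its nucleotide, HSP90, which matures kinases and receptors, and small heat shock proteins, which hold unfolded proteins without using ATP. The chaperonin HSP60 (HSPD1) and its lid HSP10 (HSPE1) fold proteins imported into mitochondria, and both genes are also raised by mitochondrial protein stress. In liver cells, which make and secrete large amounts of protein, several of these chaperones are abundant without any stress.

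The promoters were searched for the elements through which HSF1 acts. They are shown also because the HSPA1A and HSPA1B genes are close copies of each other. RefSeq windows (GRCh38.p14) of 300 bases, 250 before and 50 after a transcription start, were at hand for 9 of the 10 genes, 13 windows in all. They were searched on both strands for 3 alternating units, GAANNTTCNNGAA or TTCNNGAANNTTC, which are reverse complements of each other, and for 2 units, GAANNTTC or TTCNNGAA, each its own reverse complement. A match to 3 units always holds a match to both forms of 2 units, so the searches overlap. Capitals mark the matched letters, and every sequence runs 5′ to 3′ on the strand of its gene. The 3 whole windows are those of HSPA1A, HSPA1B and the constitutive HSP70 gene HSPA8.
HSPA1A, chr6:31815293-31815592, plus strand: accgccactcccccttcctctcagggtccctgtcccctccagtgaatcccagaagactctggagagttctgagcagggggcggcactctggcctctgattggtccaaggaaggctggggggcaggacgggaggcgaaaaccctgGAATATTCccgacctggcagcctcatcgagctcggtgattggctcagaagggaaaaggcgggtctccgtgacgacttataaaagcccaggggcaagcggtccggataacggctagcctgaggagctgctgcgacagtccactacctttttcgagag
HSPA1B, chr6:31827488-31827787, plus strand: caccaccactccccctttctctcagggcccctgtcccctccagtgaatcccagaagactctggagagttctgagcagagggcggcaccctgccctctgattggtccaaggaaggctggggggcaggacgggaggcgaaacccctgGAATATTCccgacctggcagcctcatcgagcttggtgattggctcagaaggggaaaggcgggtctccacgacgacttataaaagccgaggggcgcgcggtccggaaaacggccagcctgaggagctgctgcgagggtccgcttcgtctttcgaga
HSPA8, chr11:123062087-123062386, minus strand: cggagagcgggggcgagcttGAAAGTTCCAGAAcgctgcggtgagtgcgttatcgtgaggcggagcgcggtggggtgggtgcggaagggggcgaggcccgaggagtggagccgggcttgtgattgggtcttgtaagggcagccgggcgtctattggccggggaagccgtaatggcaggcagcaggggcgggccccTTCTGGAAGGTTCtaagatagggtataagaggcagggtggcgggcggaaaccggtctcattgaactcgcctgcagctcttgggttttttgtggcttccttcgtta

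The matches in the other windows are given with 8 bases on each side, or fewer at the end of a window.
HSP90AA1, chr14:102087097-102087140, minus strand: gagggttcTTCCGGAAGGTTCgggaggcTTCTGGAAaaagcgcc
HSPD1, chr2:197500060-197500090, minus strand: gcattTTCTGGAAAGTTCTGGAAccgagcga
DNAJB1, chr19:14518459-14518482, minus strand: gcggggcgGAAGGTTCtggagggg
DNAJB1, chr19:14518429-14518452, minus strand: gggctctgGAAGCTTCcgccggac
DNAJB1, chr19:14517921-14517944, minus strand: ctcggccaGAAGCTTCtagcatgt
HSPB1, chr7:76302483-76302506, plus strand: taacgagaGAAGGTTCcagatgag

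A 3-unit match was found in 3 of the 13 windows, 1 each of HSPA8, HSP90AA1 and HSPD1, while 0.49% of all 35116 windows (172 windows) held one. For HSPA8 there were 2 such stretches, beginning at positions -230 and -55 from the start site, and for HSP90AA1 the match was in the second of its 2 windows. A 2-unit match alone was found for HSPA1A, HSPA1B, DNAJB1 and HSPB1, and counted by windows a 2-unit match was in 8 of the 13, while 13.5% of all windows held one. The 3 matches of DNAJB1 fell in 2 of its 3 windows, the last one just after a start site. HSPH1 and HSPE1 had no match, which says only that these letters were not in these windows. On chromosome 2 the HSPD1 stretch printed above lies upstream of the HSPE1 start but outside the HSPE1 window, which begins at 197500129. The HSPA1A and HSPA1B windows were the same at 277 of 301 aligned positions (92%), and the matched 8 letters lay at positions -106 and -105. HSPD1 and HSPE1 lie head to head: the RefSeq start of HSPE1, at 197500379 on chromosome 2, was 105 bases from the nearer start of HSPD1 and 539 bases from its other start.

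The libraries held between 31795489 and 58815986 counts, and the 10 genes together took between 0.593% and 0.658% of them. Mitochondrial transcripts took between 1.94% and 2.82% of a library. All 9 liver markers were present (97.6 to 13200 CPM, counts scaled to a common library size), while 6 markers of other cell types lay between 0 and 5.02 CPM. The liver markers summed to between 29600 and 33700 CPM with vehicle and between 25400 and 29100 CPM with glycine. APOA1 (-0.26, adjusted p = 0.0483) and TTR (-0.32, adjusted p = 0.00921) were called lower by edgeR. The part of this shift in the values below was not tested. Across the transcriptome, 2053 of 15492 tested genes passed the test (edgeR quasi-likelihood, adjusted p under 0.05), or 13.3%, with 6.71% higher and 6.54% lower with glycine.

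None of the 10 heat shock genes was called, 0 higher and 0 lower, and 0 had an unadjusted p under 0.05 (edgeR), which was reached by 27.3% of all tested genes. DESeq2 and limma-voom also called 0 of 10. The median log2 change (glycine minus vehicle) was 0.04 over the 10 genes and 0.00 over all tested genes. The median absolute change was 0.06 over the 10 genes against 0.14 over all tested genes. The 10 genes lay at expression percentiles from 80 to 99.8 of the tested genes. No comparison with genes of like level was made, so the part of expression level in this difference was not tested. The 95% intervals of the fold changes reached from 0.835 at the lowest to 1.22 at the highest. For 8 of the 10 genes the whole interval lay within a 1.2-fold change in either direction, and for all 10 within 1.3-fold. The estimate was above 0 for 7 of the 10 genes, and this count was 6 with DESeq2 size factors or upper-quartile scaling and 8 with scaling to total counts. The groups did not overlap for 2 of the 10 genes, HSPA8 and DNAJB1, whereas this was so for 31.6% of all tested genes. These are bulk libraries, so fewer cells with a transcript and less of it per cell cannot be told apart.

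**Figure D1:**
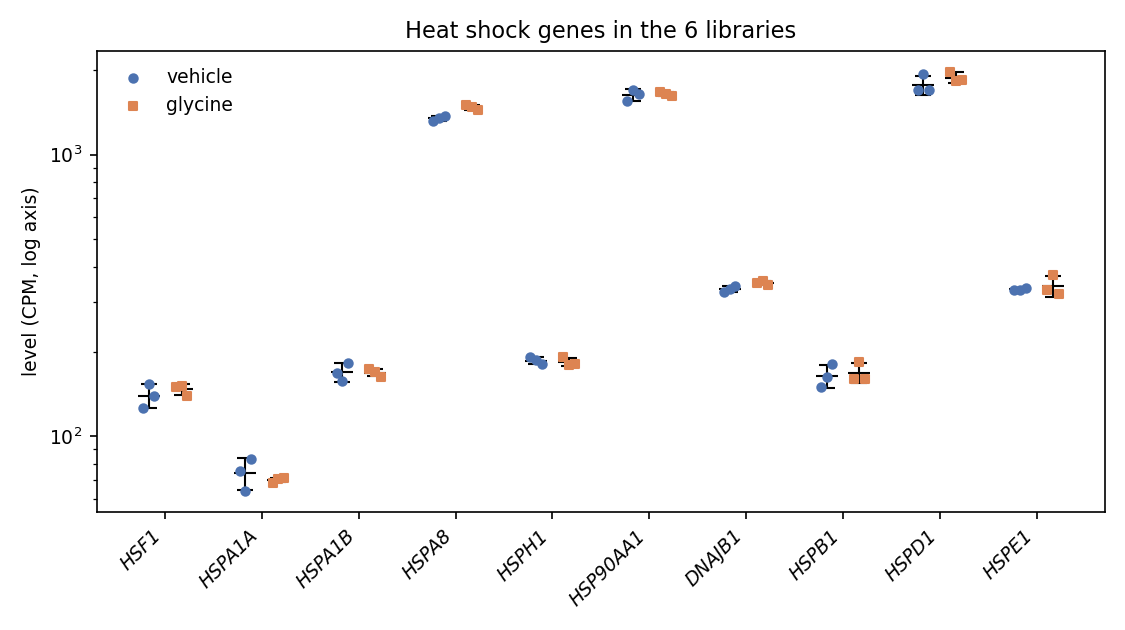
Level of each of the 10 heat shock genes in each library, in CPM on scaled library sizes (log axis), for the 3 vehicle and the 3 glycine libraries, with points for libraries and lines for group means. The groups overlap for 8 genes, and the 3 glycine libraries lie above the 3 vehicle libraries only for HSPA8 and DNAJB1, which did not pass the test.

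HSF1 (ENSG00000185122, chromosome 8) is the regulator of the whole set. Its level was 126, 153 and 139 CPM in the vehicle libraries and 150, 151 and 139 CPM in the glycine libraries. The highest and the lowest value of the 6 were both from vehicle, so the glycine values lay inside the vehicle range. The group means were 139 ± 13.7 and 147 ± 6.32 CPM (SD, n = 3 each), with a log2 change of 0.07 ± 0.0751 (SE; edgeR adjusted p = 0.574). Its 95% interval ran from -0.09 to 0.24. Of its exon length, 2.62% is shared with DGAT1 and ENSG00000254690 on the other strand. HSF1 activity is set mainly after transcription, so its RNA level is background to the target genes rather than a measure of its activity.

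Among the HSP70 genes, HSPA1A and HSPA1B encode the stress-inducible form, which rises steeply in heated cells. HSPA1A (ENSG00000204389, chr6:31815464-31817946) had 75.3, 64.1 and 82.8 CPM with vehicle and 68.5, 70.3 and 71.2 CPM with glycine. The glycine values fell inside the vehicle range. Its log2 change was -0.08 ± 0.0827 (SE; edgeR adjusted p = 0.571), with a 95% interval from -0.26 to 0.10. HSPA1B (ENSG00000204388, chr6:31827735-31830255) had 168, 157 and 182 CPM with vehicle and 173, 169 and 163 CPM with glycine, again inside the vehicle range. Its log2 change was -0.01 ± 0.0677 (SE; edgeR adjusted p = 0.962), and the interval ran from -0.15 to 0.14. Both genes were highest in vehicle 3 and lowest in vehicle 2. The vehicle libraries varied more, with a coefficient of variation of 12.7% for HSPA1A against 1.98% with glycine, and 7.53% against 2.78% for HSPA1B. These figures can be read against medians of 5.75% and 4.57% over the 4245 genes with at least 50 CPM.

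Reads of HSPA1A and HSPA1B can be hard to assign. Their longest transcripts, of 2483 and 2521 bases, were the same at 88.7% of aligned positions, and 69.9% of the 100-base windows of HSPA1A occurred letter for letter in HSPA1B. How reads matching both were counted was not given in the sources used here, so the split between them is uncertain. If such reads were left out, both genes and their sum are counted too low. HSPA1A took 31%, 29% and 31.3% of the counts of the pair with vehicle and 28.4%, 29.4% and 30.4% with glycine, and the groups overlapped. Summed, the pair had 243, 221 and 265 CPM with vehicle and 241, 239 and 234 CPM with glycine. The sum changed by -0.03 ± 0.0717 on the log2 scale (SE; edgeR adjusted p = 0.836), and the glycine values again lay inside the vehicle range.

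HSPA8 (ENSG00000109971, chr11:123057489-123063230), the constitutive HSP70 that also uncoats clathrin vesicles, had the smallest p of the 10 genes. It had 1320, 1350 and 1370 CPM with vehicle and 1500, 1480 and 1440 CPM with glycine, so all 3 glycine libraries lay above all 3 vehicle libraries. The means were 1340 ± 24.9 and 1470 ± 27.2 CPM (SD, n = 3 each), and the log2 change was 0.13 ± 0.0705 (SE). The edgeR p was 0.0809 before and 0.247 after adjustment, so the gene was not called, and the 95% interval ran from -0.02 to 0.29. Small nucleolar RNA genes within it (SNORD14C and SNORD14D) share 3.61% of its exon length. The promoter window of HSPA8 holds the 2 stretches of 3 units printed above. A window of HSP90AA1 (log2 change 0.00) and a window of HSPD1 (0.08) also held 3 units, and no window of DNAJB1 did. A link between these elements and the changes was not tested.

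The partners of HSP70 showed no called difference either. HSPH1 (ENSG00000120694, chr13:31134974-31162388), the HSP110 nucleotide exchange factor, had 191, 186 and 180 CPM with vehicle and 191, 179 and 181 CPM with glycine. The groups overlapped almost completely, with a log2 change of -0.02 ± 0.0607 (SE; edgeR adjusted p = 0.887) and an interval from -0.15 to 0.11. DNAJB1 (ENSG00000132002, chr19:14514770-14529770), the inducible J-domain protein HSP40, had 325, 333 and 341 CPM with vehicle and 350, 357 and 344 CPM with glycine. The groups did not overlap, but the lowest glycine value lay just above the highest vehicle value. The log2 change of DNAJB1 was 0.07 ± 0.0614 (SE; edgeR adjusted p = 0.475), with an interval from -0.06 to 0.21. TECR, on the other strand, shares 6.21% of the exon length of DNAJB1.

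HSP90AA1 (ENSG00000080824, chr14:102080738-102139699) encodes the inducible form of cytosolic HSP90. It had 1550, 1700 and 1640 CPM with vehicle and 1670, 1640 and 1610 CPM with glycine, the glycine values lying inside the vehicle range. Its log2 change was 0.00 ± 0.0743 (SE; edgeR adjusted p = 0.98), with an interval from -0.16 to 0.16. HSPB1 (ENSG00000106211, chr7:76302544-76304295), the small heat shock protein HSP27, had 150, 162 and 180 CPM with vehicle and 160, 184 and 160 CPM with glycine. The highest value was glycine 2 and the lowest vehicle 1. The log2 change of HSPB1 was 0.04 ± 0.0795 (SE; edgeR adjusted p = 0.823), with an interval from -0.14 to 0.21.

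The mitochondrial chaperonin genes were also not called. HSPD1 (ENSG00000144381, chr2:197486581-197516737) had 1690, 1930 and 1690 CPM with vehicle and 1970, 1820 and 1840 CPM with glycine. Vehicle 2 lay among the glycine values, so the groups overlapped. The log2 change of HSPD1 was 0.08 ± 0.0821 (SE; edgeR adjusted p = 0.558), with an interval from -0.09 to 0.26. HSPE1 (ENSG00000115541, chr2:197499994-197503457) had 331, 332 and 335 CPM with vehicle and 330, 374 and 320 CPM with glycine. The coefficient of variation was 0.587% with vehicle and 8.52% with glycine, with both the highest (glycine 2) and the lowest value (glycine 3) in that group. Its log2 change was 0.04 ± 0.0712 (SE; edgeR adjusted p = 0.78), with an interval from -0.12 to 0.19. Other genes share 23.9% of the exon length of HSPE1, 9.71% on the same strand (the read-through gene HSPE1-MOB4). HSPD1, on the opposite strand, is among these genes, and HSPE1 shares 6.62% of the exon length of HSPD1. The assignment of some reads of both genes is therefore uncertain. Counts on annotated pseudogenes, of which there are 18 for HSPD1 and 26 for HSPE1, were at most 0.184% and 0.207% of the sum with the gene itself. If reads matching both gene and pseudogene were left out, neither count would show them.

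HSPD1 and HSPE1 start close together and their proteins work as a complex, so their ratio was compared. They also share exon sequence on opposite strands, and the strand setting of the counting was not given. The part of such reads in the ratio was not tested. The log2 ratio of HSPD1 to HSPE1 in CPM was 2.35, 2.54 and 2.34 with vehicle and 2.58, 2.28 and 2.52 with glycine. Glycine 1 was the highest and glycine 2 the lowest, and the groups overlapped. The means were 2.41 ± 0.112 and 2.46 ± 0.157 (SD, n = 3 each), and the exact permutation test over libraries gave a two-sided p = 0.9. With 3 against 3 libraries the smallest p this test allows is 0.1. Across the 6 libraries the log2 levels of the 2 genes had a Pearson r of -0.06, which put HSPE1 at rank 5162 of 9110 genes in likeness to HSPD1.

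**Figure D2:**
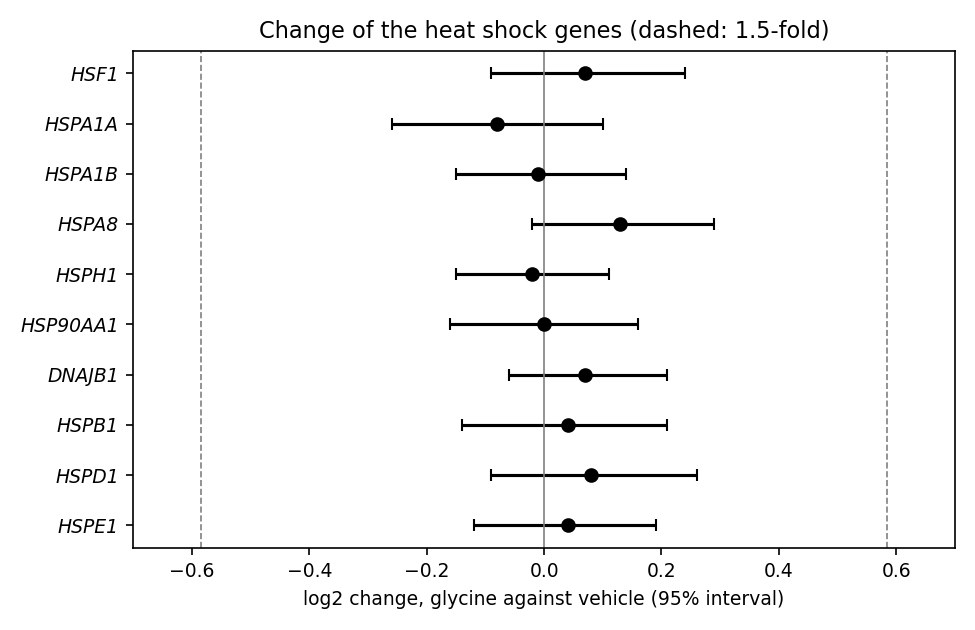
Log2 fold change (glycine minus vehicle) of each of the 10 heat shock genes from edgeR, with bars for the 95% interval (3 libraries per group). Every interval crosses 0, from -0.26 for the lowest end (HSPA1A) to 0.29 for the highest (HSPA8).

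Levels were compared between genes as CPM per kilobase of exon. The length used was that of all annotated exons of a gene together, so the order depends on the annotation. It was 8390 bases for HSPH1 and 5307 bases for HSF1, and in CPM HSPH1 (186 with vehicle) lay above HSF1 (139). In the vehicle libraries HSPD1 was highest, with 416 ± 32.7 CPM per kilobase (SD, n = 3), followed by HSP90AA1 with 311 ± 14.3 and HSPA8 with 277 ± 5.14. HSPE1 followed with 168 ± 0.988 CPM per kilobase, HSPB1 with 100 ± 9 and DNAJB1 with 90.6 ± 2.13. The inducible HSP70 genes were lower, HSPA1B with 67 ± 5.05 and HSPA1A with 29.8 ± 3.79 CPM per kilobase. Reads matching both of this pair may have been left out, so their levels and their places in the order are uncertain. Reads matching a gene and its pseudogenes may also have been left out, as for HSPD1, HSPE1 and HSPA8 (17 pseudogenes). HSF1 with 26.2 ± 2.57 and HSPH1 with 22.2 ± 0.662 CPM per kilobase closed the order. HSPB1 and DNAJB1, and likewise HSPA1A and HSF1, overlapped between libraries, so their order was not resolved. The order of the means was the same with glycine, where HSP90AA1 (312 ± 6.11 CPM per kilobase) and HSPA8 (304 ± 5.61) overlapped, and HSPA1A and HSF1 did so again.

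The summed level of the 10 genes was 5920, 6360 and 6140 CPM with vehicle and 6550, 6420 and 6270 CPM with glycine. The lowest glycine sum lay below the highest vehicle sum, and the ratio of the means was 1.04. The 7 cytosolic chaperones summed to 3900 ± 105 CPM in the vehicle group and 4050 ± 71.9 CPM in the glycine group, and HSPD1 with HSPE1 to 2100 ± 138 and 2210 ± 72.1 CPM (SD, n = 3 each). These sums are dominated by HSPD1, HSP90AA1 and HSPA8.

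The wider chaperone network was described with 8 lists of related genes. Together they held 121 counted genes beside the 10, of which 114 were tested, and 3 were called higher and 4 lower, against the background of 13.3% given above. The 7 genes not tested had too few reads. Among them was HSPA6, an HSP70 gene that is almost silent without stress and strongly raised by heat, with 0, 1 and 3 counts in the vehicle libraries and 2, 11 and 10 counts in the glycine libraries. The ranges overlapped. When all genes with reads were tested, HSPA6 had an edgeR p of 0.00844 before and 0.0892 after adjustment over 31093 genes, so it was not called, on 4 counts with vehicle and 23 with glycine in all. The fitted log2 change was 2.09, a value that depends on the prior count at so few reads. In a vehicle library, 3 counts, the limit that a count of 0 allows, were between 0.0837 and 0.0858 CPM, for counting error only. The median log2 changes of the lists were small, between -0.03 and 0.11, for 7 of them, beside 0.00 for all tested genes. For the small heat shock proteins the median was -0.36, over 5 tested genes with group means of at most 4 CPM, HSPB1 not among them.

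**Figure D3:**
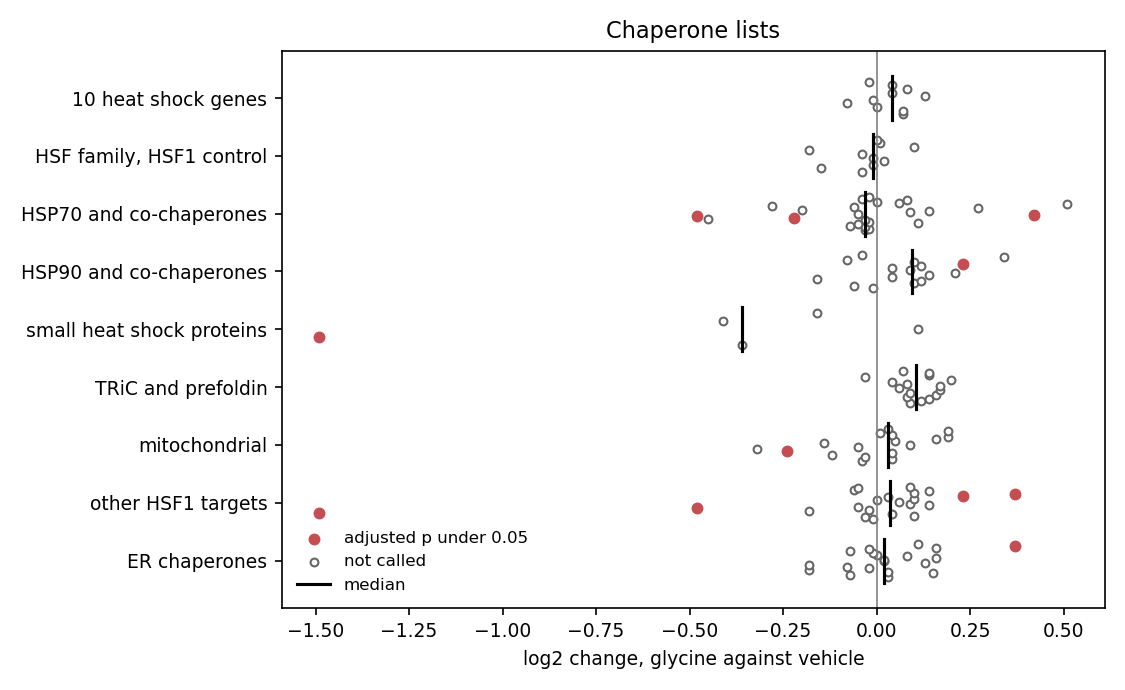
Log2 fold change (glycine minus vehicle) of every tested gene in the 10 heat shock genes and in 8 lists of related genes, 1 row per list, with filled points for genes called by edgeR (adjusted p under 0.05) and a line at the median. The 10 heat shock genes lie between -0.08 and 0.13, and CRYAB, at -1.49, lies farthest from 0.

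The list of the HSF family and HSF1 control held other HSF factors, HSBP1, the acetylase EP300, the deacetylase SIRT1, the ubiquitin ligase FBXW7 and others. Of its 12 genes, 10 were tested and none was called, 0 also at an unadjusted p under 0.05 in edgeR (27.3% of all tested genes). EP300, which has the smallest p of the list, had 146, 141 and 110 CPM with vehicle and 127, 109 and 124 CPM with glycine. Its log2 change was -0.15 (edgeR adjusted p = 0.363), and without vehicle 3 it became -0.26 (adjusted p = 0.0388). The TRiC chaperonin and prefoldin, which fold actin and tubulin, had 16 of 16 tested and none called, and 5 of 16 reached an unadjusted p under 0.05, a share near the 27.3% of all tested genes. The estimate was above 0 for 15 of these 16 genes under all 4 scalings, with a median of 0.11 in the main fit. Of all 15492 tested genes, 7867 were above 0 in the main fit. The 16 genes were read in the same 6 libraries, so their signs are not independent of each other. PDCL3, a co-chaperone of TRiC, had the smallest p, with 36.2, 35.8 and 38.5 CPM with vehicle and 40.9, 43.1 and 40.2 CPM with glycine (log2 change 0.17, edgeR adjusted p = 0.114). The groups did not overlap for PDCL3.

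Among the cytosolic HSP70 family and its J-domain and nucleotide exchange partners, 25 of 26 genes were tested, 1 was called higher and 2 lower. DNAJB4, a J-domain protein closely related to DNAJB1, had 11.3, 10.8 and 11.7 CPM with vehicle and 8.08, 7.79 and 8.34 CPM with glycine. All glycine libraries lay below all vehicle libraries, and DNAJB4 fell by 0.48 ± 0.0859 on the log2 scale (SE; edgeR adjusted p = 0.00251), a call kept in all 16 alternatives. DNAJB2, a J-domain protein linked to the proteasome, fell from 69.4 ± 2.77 to 59.6 ± 2.08 CPM (SD, n = 3 each; log2 change -0.22, edgeR adjusted p = 0.0356). DNAJB5 rose from 3.46 ± 0.292 to 4.6 ± 0.512 CPM (SD, n = 3 each; log2 change 0.42, edgeR adjusted p = 0.049). These 2 calls were fragile. The adjusted p of DNAJB2 was between 0.0509 and 0.143 without vehicle 1, vehicle 3, glycine 1, glycine 2 or glycine 3, and that of DNAJB5 between 0.0526 and 0.185 without vehicle 1, vehicle 2, glycine 1, glycine 2 or glycine 3. DNAJB2 was also not called with no filter (adjusted p = 0.057), nor DNAJB5 with DESeq2 size factors (0.0509), upper-quartile scaling (0.0564), the DESeq2 Wald test (0.0789) or limma-voom (0.0532).

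Cytosolic HSP90 and its co-chaperones had 16 genes tested and 1 called higher. This was PTGES3, the co-chaperone p23 that stabilizes the closed form of HSP90, with 281, 316 and 287 CPM with vehicle and 352, 343 and 340 CPM with glycine. The groups did not overlap, and PTGES3 rose by 0.23 ± 0.0666 on the log2 scale (SE; edgeR adjusted p = 0.0391), a call that was lost without vehicle 1, vehicle 3, glycine 1, glycine 2 or glycine 3 (adjusted p between 0.0905 and 0.175).

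The largest change among the tested list genes was in a small heat shock protein. CRYAB (ENSG00000109846, chr11:111908565-111923722), the lens chaperone αB-crystallin, which is also heat-inducible in other tissues, had 3.37, 4.59 and 4.03 CPM with vehicle and 1.28, 1.59 and 1.33 CPM with glycine. In counts these were 118, 160 and 145 against 41, 93 and 56. Every glycine library lay below every vehicle library, with a log2 change of -1.49 ± 0.164 (SE; edgeR adjusted p = 5.88e-05), and the call was kept in all 16 alternatives. Of the exon length of CRYAB, 20.6% lies under HSPB2 and its read-through on the other strand, and HSPB2 itself had at most 1 count in any library. CRYAB and the read-through in turn share 59.7% of the exon length of HSPB2, so reads there may have been left unassigned. The part of this overlap in the CRYAB change was not tested. CRYAB was the only one called of the 5 small heat shock proteins tested. HSPB1, the abundant member of that family, averaged 164 ± 14.7 CPM in the vehicle libraries and 168 ± 14 CPM in the glycine libraries (SD, n = 3 each).

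**Figure D4:**
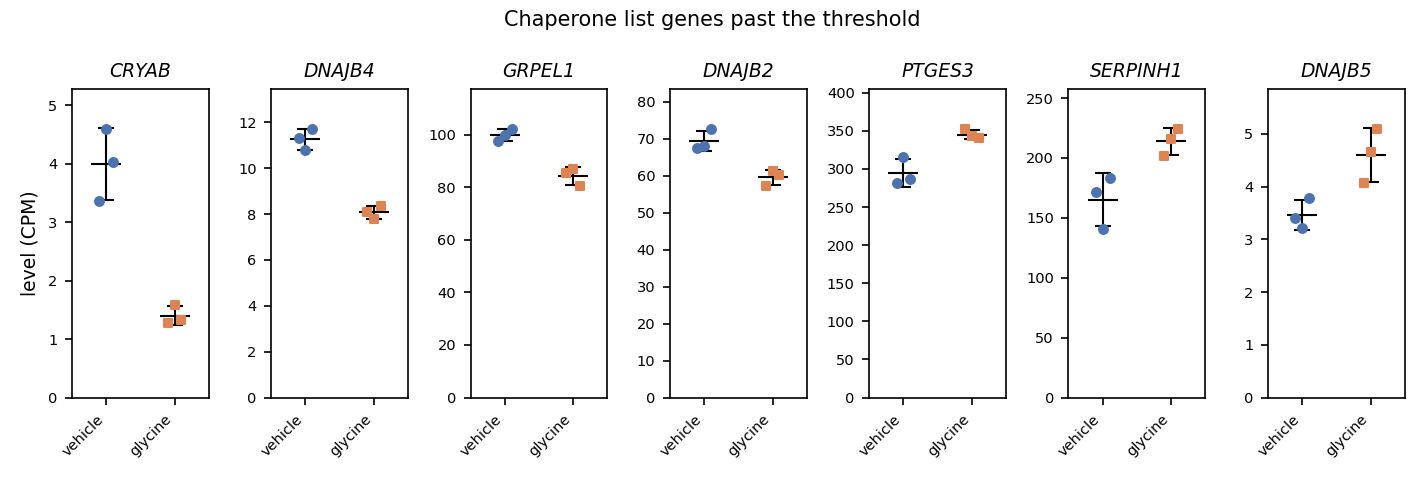
CPM in each library, from 0, for the 7 chaperone and heat shock list genes called by edgeR (adjusted p under 0.05), with points for the 3 vehicle and 3 glycine libraries and lines for the group means. The groups do not overlap for any of the 7, DNAJB5, PTGES3 and SERPINH1 being higher and CRYAB, DNAJB4, DNAJB2 and GRPEL1 lower with glycine.

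In the mitochondrial list (HSP70, proteases and their partners), 17 of 18 genes were tested, 0 were called higher and 1 lower. GRPEL1, the nucleotide exchange factor of mitochondrial HSP70, had 97.5, 100 and 102 CPM with vehicle and 85.5, 86.8 and 80.4 CPM with glycine. The groups did not overlap, and GRPEL1 fell by 0.24 ± 0.0605 on the log2 scale (SE; edgeR adjusted p = 0.0181). The call was lost without glycine 1 (adjusted p = 0.054) or glycine 3 (0.0808).

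Other heat-inducible targets of HSF1 had 22 of 23 tested, 2 called higher (SERPINH1 and PTGES3) and 2 lower (CRYAB and DNAJB4). ER chaperones, taken for comparison, had 20 tested and 1 called higher, again SERPINH1. SERPINH1 encodes HSP47, the ER chaperone of procollagen, and had 172, 141 and 183 CPM with vehicle and 202, 216 and 224 CPM with glycine. All glycine libraries lay above all vehicle libraries, with a log2 change of 0.37 ± 0.0865 (SE; edgeR adjusted p = 0.0129), and without glycine 3 the adjusted p was 0.0621. Of the markers of other cell types, COL1A1, a collagen gene of fibroblasts, was also called higher, from 2.15 ± 0.251 to 4.38 ± 0.598 CPM (SD, n = 3 each; log2 change 1.03, edgeR adjusted p = 0.000585). The other fibroblast collagen gene of the list, COL1A2, was near 0 in both groups (0.0852 ± 0.0758 and 0.0753 ± 0.0171 CPM), and PECAM1 had 4.39 ± 0.0935 and 3.94 ± 0.295 CPM (edgeR adjusted p = 0.396). The 6 markers summed to between 6.99 and 7.13 CPM with vehicle and between 8.01 and 9.02 CPM with glycine, 1 of 6 was called, and 4 (PTPRC, COL1A2, DES and GFAP) had too few reads to test. Their part in the SERPINH1 result was not tested.

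The genes most like the heat shock genes were sought among the 9110 tested genes averaging 10 CPM or more, by Pearson correlation of log2 CPM over the 6 libraries, which share treatment and depth. The search ran over many genes with few points, so the values describe these libraries only. The highest r was 0.995 for HSPA8 (with MMACHC) and 0.998 for DNAJB1 (with ENSG00000261061). For HSPA1A it was 0.986 (with UCKL1) and for HSPA1B 0.960 (with DR1), so these close copies were not each other's nearest gene. HSPH1 was nearest to TWSG1 (0.990), HSP90AA1 to TMBIM4 (0.990) and HSPB1 to PRADC1 (0.997). HSPE1 was nearest to ATP5MK (0.992). Between the heat shock genes themselves the highest r were 0.93 for HSPA8 with DNAJB1 and 0.91 for HSF1 with HSP90AA1, and the lowest was -0.87 for HSPA1A with HSPD1. HSPA1A and HSPA1B had an r of 0.82.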

How the data were processed

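RNA from 6 libraries of HepG2 cells (vehicle or glycine, 3 each) was measured by sequencing, with library construction by a service company. The deposited values are whole-number counts of reads per gene. Per the submitters' processing notes, Trimmomatic 0.36, STAR 2.5.2b, featureCounts in Subread 1.5.2 and GRCh38 were used; annotation, strand setting and handling of multiply mapped reads were not given in the sources used here. Of 57500 genes, 56898 were in GENCODE 29. Symbols came from a separate list of gene names where it held one, and otherwise from GENCODE 29. Groups and replicate numbers came from the library titles.

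Counts were tested with the edgeR 4.0.16 quasi-likelihood test in R 4.3.3 (two-sided) with trimmed-mean scaling and its expression filter (minimum count 10, minimum total 15). Benjamini-Hochberg adjustment ran over 15492 genes, with a threshold of 0.05. CPM used the scaled library sizes, SE was the log2 change over the square root of F, and 95% intervals used the degrees of freedom of the test. The common biological coefficient of variation was 7.29%. Replicates of a group differed by 6.97 to 26.8 chi-square units per degree of freedom, so none was a duplicate. The edgeR p-values set the difference between the groups against the spread between these libraries, which is estimated with information from all tested genes.

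Genes named are the 10 heat shock genes, up to 5 called genes per list (or that with the smallest p), and the closest gene to each of the 10, which for HSF1 and HSPD1 is not reported here. The 10 genes and the lists were chosen with earlier results of these data known. HSPB11 was listed, but no counted gene carried that symbol, and whether it was counted under another name was not checked. The test was checked on simulated data. The alternatives were other scalings and filters, DESeq2 1.42.0, limma 3.58.1 with voom, removal of a gene length trend, a replicate block, added pseudogene counts, summing HSPA1A with HSPA1B, and leaving out each library.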

Additional observations from a re-analysis of the deposited data

How the results depend on the processing

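None of the 10 heat shock genes was called in any alternative run. The log2 changes of HSPA8 (0.11 to 0.15), DNAJB1 (0.05 to 0.09) and HSPD1 (0.04 to 0.15) kept their sign throughout. The others changed sign around 0 without being called, and the cause was not tested. Leaving out 1 library gave -0.01 for HSF1 (without vehicle 1, range -0.01 to 0.15), 0.01 for HSPA1A (without vehicle 3, range -0.17 to 0.01), 0.05 and 0.00 for HSPA1B (without vehicle 3 or glycine 3, range -0.06 to 0.05) and 0.00 for HSPH1 (without glycine 2, range -0.06 to 0.00). It gave -0.04 and -0.02 for HSP90AA1 (without vehicle 1 or glycine 1, range -0.04 to 0.04), -0.03 and -0.04 for HSPB1 (without vehicle 1 or glycine 2, range -0.04 to 0.11) and -0.03 for HSPE1 (without glycine 2, range -0.03 to 0.07). For HSPA1A with HSPA1B it gave -0.09 to 0.04 (0.04 without vehicle 3), and for the log2 ratio of HSPD1 to HSPE1 -0.007 to 0.141 (-0.007 without glycine 1). Other settings gave 0.01 for HSPA1B (total count scaling), -0.00 for HSP90AA1 (DESeq2 size factors, upper-quartile scaling and the DESeq2 Wald test) and -0.00 for HSPB1 (gene length trend removed, with or without the replicate block).

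Small counts of called list genes moved, and the cause was not tested. The HSP70 list had 0 higher instead of 1 with DESeq2 size factors, upper-quartile scaling, the DESeq2 Wald test, limma-voom and the replicate block, and 1 lower instead of 2 with no filter or the block. The HSP90 list had 2 higher instead of 1 with no filter or the length trend removed (also with the block). The mitochondrial list had 1 higher instead of 0 with total count scaling, a mean of at least 1 CPM or the length trend removed, and 2 lower instead of 1 with no filter, the length trend removed or the block (also both). Other HSF1 targets had 1 higher instead of 2 with the block, with or without the length trend removed, and 3 lower instead of 2 with the length trend removed. Leaving out 1 library gave 0 to 1 lower for HSF1 control, 0 to 2 higher and 1 to 2 lower for HSP70, 0 to 3 higher for HSP90, 0 to 1 higher for TRiC, 0 to 1 higher and 0 to 2 lower for the mitochondrial list, 0 to 2 higher for HSF1 targets, and 0 to 2 in each direction for ER chaperones.

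The replicate numbers are not stated to pair the libraries, and deviations of same-numbered libraries had r of -0.058, -0.027 and -0.003 (other combinations -0.198 to 0.214). With the replicate block, 866 genes were called higher and 918 lower, instead of 1040 and 1013, and DNAJB2 (adjusted p = 0.0644), DNAJB5 (0.0522) and PTGES3 (0.0668, or 0.061 with the length trend also removed) were not called. Leaving out 1 library gave 587 to 926 higher and 655 to 1010 lower. The 10 genes had between 2186 and 106451 counts per library, so depth limited HSPA6 and the other genes not tested more than these.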
